A study of Homo sapiens with 4 samples.

Results

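The expression of 10 genes that are recurrently mutated in MDS was followed across cell line and AZA treatment. They comprise the splicing factors SF3B1, SRSF2, U2AF1 and ZRSR2, the chromatin regulators ASXL1, EZH2 and BCOR, the cohesin subunit STAG2, and the isocitrate dehydrogenases IDH1 and IDH2. Every probe that the array design names after 1 of these genes was taken, which gave 18 of the 58185 probes analysed and 10 of 43311 gene names. Of the 18 probes, 15 were well above background on all 4 arrays by the flag of the scanner software, and the other 3 were well above background on none. All 10 genes had at least 1 probe above background, and 5 of them had only 1 probe.

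The parental line MDS-L was derived from MDS cells. Its derivative MDS-L/CDA was made resistant to AZA by introducing CDA, the gene of cytidine deaminase. AZA (azacitidine) is a cytidine analogue that traps DNA methyltransferases once it is built into DNA, and cytidine deaminase inactivates it. Each line was cultured with IL-3 for 72 h with vehicle (0.1% DMSO) or with 1 μM AZA, and RNA of each of the 4 conditions was hybridized to 1 single-colour array on 1 shared slide. Some label fields give the dose as 1 mM, and the treatment field of the MDS-L AZA array and of the MDS-L/CDA vehicle array names the opposite treatment, whereas title, source name and description of both arrays give the treatments used here; following that field, neither line would have both treatments. With 1 array per condition, neither the effect of AZA within a line nor its difference between the lines could be tested, and a fit that takes both lines as replicates of the treatment, with that difference as its error, was not made. The errors given below are those that the scanner software assigns to a spot, which cover neither the culture nor the hybridization. For the 15 measured probes that error was between 10.0% and 17.2% of the signal, and it gave a standard error of 0.20 to 0.32 for a log2 ratio of 2 arrays.

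The proteins of these genes act at a few steps of gene expression. SF3B1 is the largest subunit of the SF3b part of the U2 snRNP, which binds the branch point of an intron. U2AF1 reads the AG at the 3′ splice site, SRSF2 binds exonic enhancers, and ZRSR2 recognizes the 3′ splice site of the rare introns removed by the minor spliceosome. EZH2 is the catalytic subunit of PRC2, which methylates histone H3 at lysine 27, ASXL1 is the cofactor of the histone H2A deubiquitinase BAP1, BCOR belongs to the variant Polycomb complex PRC1.1, and STAG2 is a subunit of the cohesin ring. IDH1 in the cytosol and IDH2 in mitochondria convert isocitrate to 2-oxoglutarate, the cosubstrate of TET and histone demethylases, and mutant forms make 2-hydroxyglutarate instead. In MDS these genes carry somatic mutations; the arrays measured the amount of their RNA and read no mutation.

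The 75th percentile of the signal, to which each array was scaled, was 52.5 and 52.9 on the MDS-L arrays and 40.8 and 37.3 on the MDS-L/CDA arrays (vehicle and AZA). Between 32.6% and 36.5% of probes were well above background, and the median SD between spots of one probe was 0.12 to 0.20 on the log2 scale. Of 9 markers of the blast line, 7 (PTPRC, CD34, CD33, KIT, CD38, IL3RA and CSF2RB) were above background on all 4 arrays, SPN was above it on both MDS-L arrays, and MPO on none. Of 7 markers of other cell types, EPCAM, KRT19, COL1A1, CDH5 and CD3E were above background on none, CD79A was above it on all 4 and ALB on 3. Some markers differed with AZA, and their part in the results on the 10 genes was not tested. In MDS-L cells KIT had a level of 0.503 with vehicle and 23.8 with AZA, CD38 of 23.5 and 8.43, and ALB of 0.363 and 17.9. KIT had 0.346 and 1.24 in MDS-L/CDA cells, and CD38 had 25.8 and 18.7 there. The probe for CDA was above background on none of the 4 arrays, MDS-L/CDA included, so the arrays did not check the label of that line.

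Levels are given as the signal divided by the 75th percentile of the array, so a level of 1 equals that percentile. Levels of one probe were compared between arrays, and never with the level of another probe. In RNA from whole cultures, fewer cells that express a gene and less RNA per cell cannot be told apart.

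**Figure D1:**
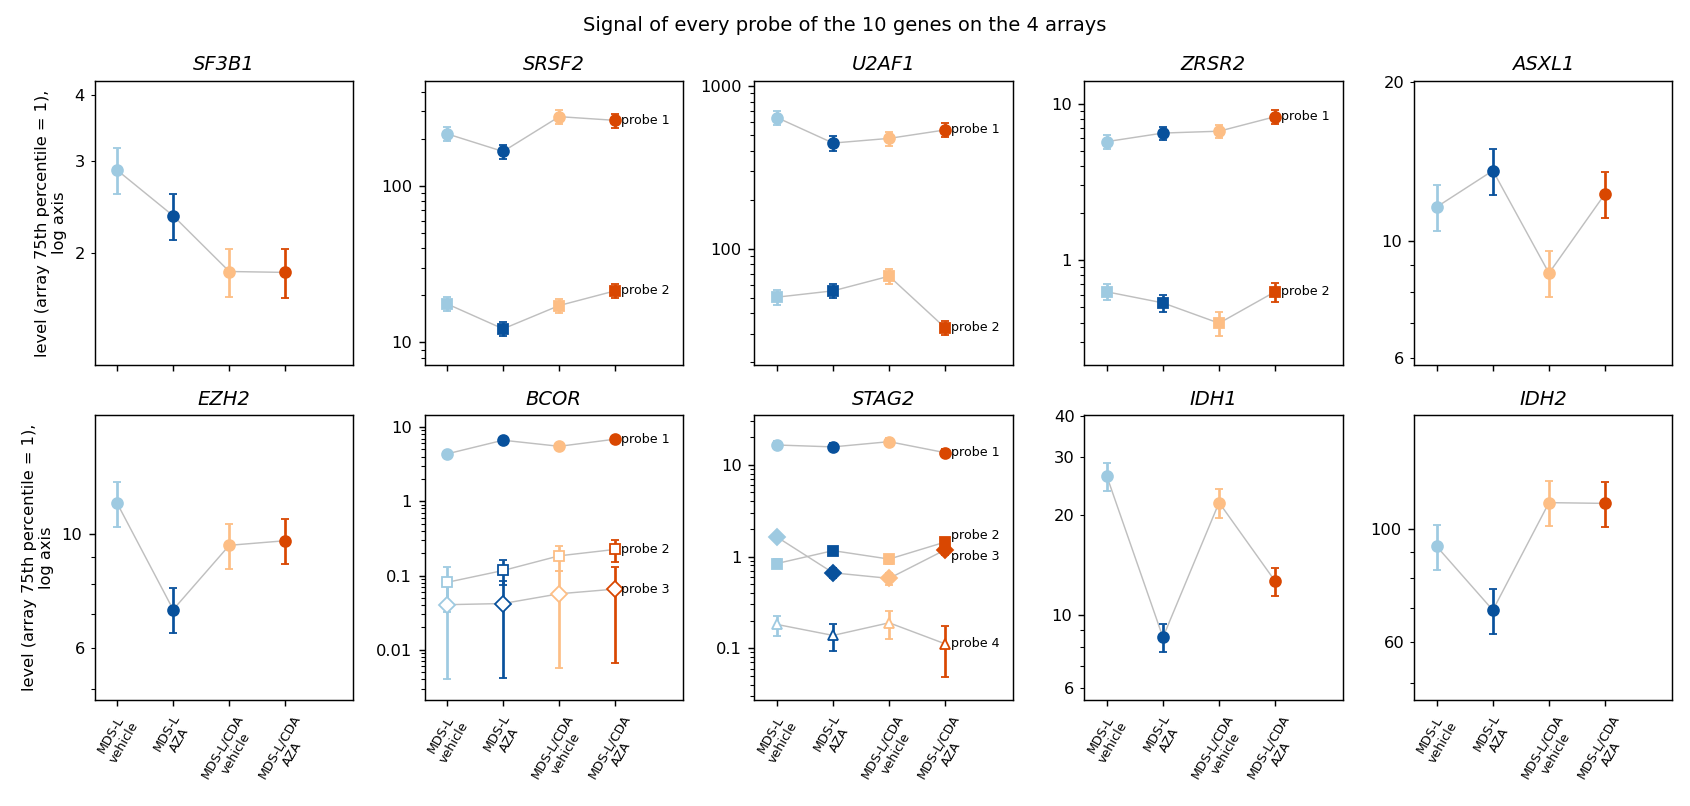
Level of all 18 probes on the 4 arrays (signal over the array's 75th percentile, log axis), 1 panel per gene. Points are single arrays, bars the scanner software's error (shortened where it would reach 0), filled points are well above background and open points are not, and grey lines join the points of 1 probe. IDH1 is at 26.3 and 21.9 in the vehicle arrays and at 8.54 and 12.6 in the AZA arrays.

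IDH1 had the widest range of the 15 measured probes over the 4 arrays, 1.62 on the log2 scale. Its probe lay at chr2:209101326-209101385 of hg19, on the minus strand. In MDS-L cells the level was 26.3 ± 2.63 (software error) with vehicle and 8.54 ± 0.855 with AZA, and in MDS-L/CDA cells it was 21.9 ± 2.19 with vehicle and 12.6 ± 1.26 with AZA. Both AZA arrays were below both vehicle arrays, with the lowest level in the sensitive line. In MDS-L cells IDH1 was 3.08-fold lower with AZA (log2 ratio −1.62, software SE 0.20), and 1.20% of the 19448 probes measured on both MDS-L arrays had a lower ratio. In MDS-L/CDA cells the log2 ratio was −0.79, short of 2-fold, and 5.11% of probes had a lower one. The log2 ratio of MDS-L was 0.83 below that of MDS-L/CDA (software SE 0.29), and 15.9% of the 17809 probes measured on all 4 arrays differed more between the lines, in either direction. Between the lines, IDH1 was at 0.832 of the MDS-L level in vehicle and at 1.48 of it with AZA. Before scaling, the AZA signals were close, 471 in MDS-L/CDA and 452 in MDS-L, so the 1.48 depends on the scaling. In vehicle the signals before scaling were 892 and 1381. For no gene was a ratio between the lines recomputed with other processing.

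IDH2, the mitochondrial enzyme, did not share this pattern. MDS-L cells had a level of 92.3 with vehicle and 69.3 with AZA, and both MDS-L/CDA arrays were at 112. The MDS-L AZA array was the lowest of the 4, with a ratio to vehicle of 0.751 (log2 ratio −0.41, software SE 0.20), while the ratio in MDS-L/CDA cells was 0.997. With quantile normalization and in the deposited value table, the log2 ratio in MDS-L was −0.15, smaller in size than that SE. With AZA, the MDS-L/CDA array was 1.62 times as high as the MDS-L array. Before scaling, these 2 signals were 4173 and 3669.

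The antisense transcript IDH1-AS1, which is not among the 10 genes and was looked up after the IDH1 values had been seen, starts on the opposite strand close to IDH1. Its probe had levels of 1.18, 0.425, 0.911 and 1.23 in MDS-L vehicle, MDS-L AZA, MDS-L/CDA vehicle and MDS-L/CDA AZA. As for IDH1, the MDS-L AZA array was the lowest (ratio 0.360, log2 ratio −1.47, software SE 0.26). These levels were low, and the ratios of this probe were not recomputed with other processing. In MDS-L/CDA cells the ratio lay above 1, at 1.36, where that of IDH1 was 0.577.

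The 250 bases before an IDH1 start site are shown because the start of IDH1-AS1 lies inside them, 162 bases from that of IDH1, and because AZA acts on cytosine methylation, whose usual site is the CpG dinucleotide. The window is chr2:208255072-208255321 of GRCh38.p14 in RefSeq, on the minus strand, written 5′ to 3′ with each CpG in capitals.
IDH1: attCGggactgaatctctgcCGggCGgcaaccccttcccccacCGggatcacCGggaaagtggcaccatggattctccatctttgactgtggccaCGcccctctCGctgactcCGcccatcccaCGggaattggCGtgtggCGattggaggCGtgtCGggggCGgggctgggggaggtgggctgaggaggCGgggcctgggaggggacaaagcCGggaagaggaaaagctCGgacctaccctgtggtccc
It holds 17 CpG, and 61.0% of the 35116 promoter windows in the table hold fewer. RefSeq windows were matched for 9 of the 10 genes, 17 windows in all, and not for SRSF2. Some genes have several start sites, and windows of SF3B1 and of ASXL1 overlap, so the 17 windows are not separate observations. Their median was 23 CpG, against 11 over all windows, and they ranged from 4 in IDH2 to 39 in EZH2. On either strand, the GC box GGGCGG was present in 11 of the 17 windows, IDH1 included (42.6% of all windows), the CCAAT box CCAAT in 5 (32.0%), the ETS motif CCGGAAG in 2 (8.52%) and the TATA box TATAAA in none (10.7%). Both windows with the ETS motif are overlapping ones of ASXL1. No methylation was measured on these arrays.

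By the brightest probe of each gene, EZH2 came next to IDH1 in the size of its difference in MDS-L cells. MDS-L cells had a level of 11.5 with vehicle and 7.12 with AZA, and MDS-L/CDA cells had 9.50 with vehicle and 9.69 with AZA. The MDS-L AZA array was the lowest and the other 3 lay close together. The ratio of AZA to vehicle was 0.621 in MDS-L (log2 ratio −0.69, software SE 0.20) and 1.02 in MDS-L/CDA. Neither reached 2-fold, 86.0% of probes had a higher ratio in MDS-L, and 21.2% differed more between the lines.

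The other chromatin regulators had higher levels on the AZA arrays of both lines. ASXL1 had levels of 11.6, 13.6, 8.69 and 12.3 in MDS-L vehicle, MDS-L AZA, MDS-L/CDA vehicle and MDS-L/CDA AZA, with ratios of 1.17 in MDS-L and 1.41 in MDS-L/CDA. In MDS-L that was a log2 ratio of 0.23, close to the software SE of 0.20, and it turned to −0.31 when arrays were scaled to their median. Of the 4 accessions that the design lists for the ASXL1 probe, 1 is from RefSeq, transcript variant 2.

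BCOR was read by a probe with levels of 4.34, 6.64, 5.50 and 6.86 in the same order. Its ratio was 1.53 in MDS-L (log2 ratio 0.61, software SE 0.20), the highest of any measured probe of the 10 genes there, and 1.25 in MDS-L/CDA. The design gives this probe Ensembl and GenBank transcripts, and no RefSeq one. The BCOR probe listed for 4 RefSeq variants had levels of 0.0406 to 0.0658 and another probe 0.0810 to 0.225, both below background on all 4 arrays, so the BCOR values rest on 1 of 3 probes.

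Among the splicing factors, the brightest probe of each gene differed by less than 2-fold in all 4 comparisons. SF3B1 had levels of 2.88, 2.35, 1.84 and 1.84 in MDS-L vehicle, MDS-L AZA, MDS-L/CDA vehicle and MDS-L/CDA AZA. Both MDS-L/CDA arrays were below both MDS-L arrays, with a ratio of 0.640 in vehicle (log2 ratio −0.64, software SE 0.21) and of 0.780 with AZA, and 5.92% of probes had a lower ratio in vehicle. The vehicle signals before scaling were 75.1 in MDS-L/CDA and 151 in MDS-L, further apart than the scaled levels. AZA over vehicle gave 0.818 in MDS-L and 0.996 in MDS-L/CDA. For the SF3B1 probe, too, the design lists 4 accessions, of which transcript variant 2 is the 1 from RefSeq.

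SRSF2 was read by 2 probes. Probe 1 (A_23_P77776) had levels of 215, 166, 276 and 262, and probe 2 (A_33_P3412945) had 17.6, 12.2, 17.2 and 21.4. On both probes the MDS-L AZA array was the lowest of the 4, with ratios to vehicle of 0.771 and 0.693. These are log2 ratios of −0.38 and −0.53, which became −0.12 and −0.38 with quantile normalization and in the deposited value table. In MDS-L/CDA cells the ratios were 0.947 and 1.24, on either side of 1. With AZA, the MDS-L/CDA array was higher than the MDS-L array by 1.58-fold on probe 1 and by 1.75-fold on probe 2, the largest such ratio of the splicing factors in that comparison. Before scaling, the signals were 9750 against 8768 on probe 1 and 795 against 646 on probe 2.

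The probe for the gene of the minor spliceosome that was the brighter of its pair, ZRSR2 probe 1 (A_23_P85053), had levels of 5.72, 6.48, 6.66 and 8.25. These correspond to ratios of AZA to vehicle of 1.13 in MDS-L, where the sign depended on the processing (log2 ratio 0.18, and −0.36 with median scaling), and of 1.24 in MDS-L/CDA. Probe 2 (A_33_P3417620), listed for no RefSeq transcript, was dim, at 0.628, 0.534, 0.396 and 0.630. Its lowest level was in MDS-L/CDA vehicle, and its ratio was 1.59 in MDS-L/CDA (software SE 0.32 on the log2 scale) and 0.850 in MDS-L.

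U2AF1 and STAG2 gave answers that differed with the probe. U2AF1 probe 1 (A_23_P6303) had levels of 638, 445, 475 and 536 in MDS-L vehicle, MDS-L AZA, MDS-L/CDA vehicle and MDS-L/CDA AZA, so that the MDS-L vehicle array was the highest. Probe 2 (A_21_P0010986) had 50.3, 55.0, 67.7 and 32.5, and there the MDS-L/CDA AZA array was the lowest. In MDS-L/CDA cells the ratio of AZA to vehicle was 1.13 on probe 1 and 0.481 on probe 2 (log2 ratios 0.17 and −1.06, software SE 0.20 each). In MDS-L cells the probes were at 0.697 and 1.09. Their log2 ratios there were −0.52 and 0.13, and −0.32 and 0.37 with quantile normalization. RefSeq holds a near-identical copy of U2AF1 on the same chromosome (LOC102724594, also named U2AF1L5), and RNA of the 2 genes may not be told apart by these probes.

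STAG2 had 3 probes above background. Probe 1 (A_24_P66125) had levels of 16.4, 15.7, 17.9 and 13.5, probe 2 (A_33_P3304304) had 0.839, 1.16, 0.938 and 1.44, and probe 3 (A_23_P33856) had 1.63, 0.665, 0.578 and 1.18. Probe 3 was highest in MDS-L vehicle and MDS-L/CDA AZA and was lower on the other 2 arrays, an order that neither of the other probes had. Its ratio of AZA to vehicle was 0.407 in MDS-L (log2 ratio −1.30, software SE 0.23) and 2.05 in MDS-L/CDA (log2 ratio 1.03, software SE 0.26), whereas probe 1 gave 0.954 and 0.758, and probe 2 gave 1.38 and 1.53. The difference between the lines on probe 3 was −2.33 (software SE 0.35), and 0.55% of probes differed more. The signals behind probe 3 were low, from 23.5 to 85.8 before scaling, where the lowest signal well above background was between 9.98 and 11.1. The remaining probe, at 0.112 to 0.190, was below background on all arrays.

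**Figure D2:**
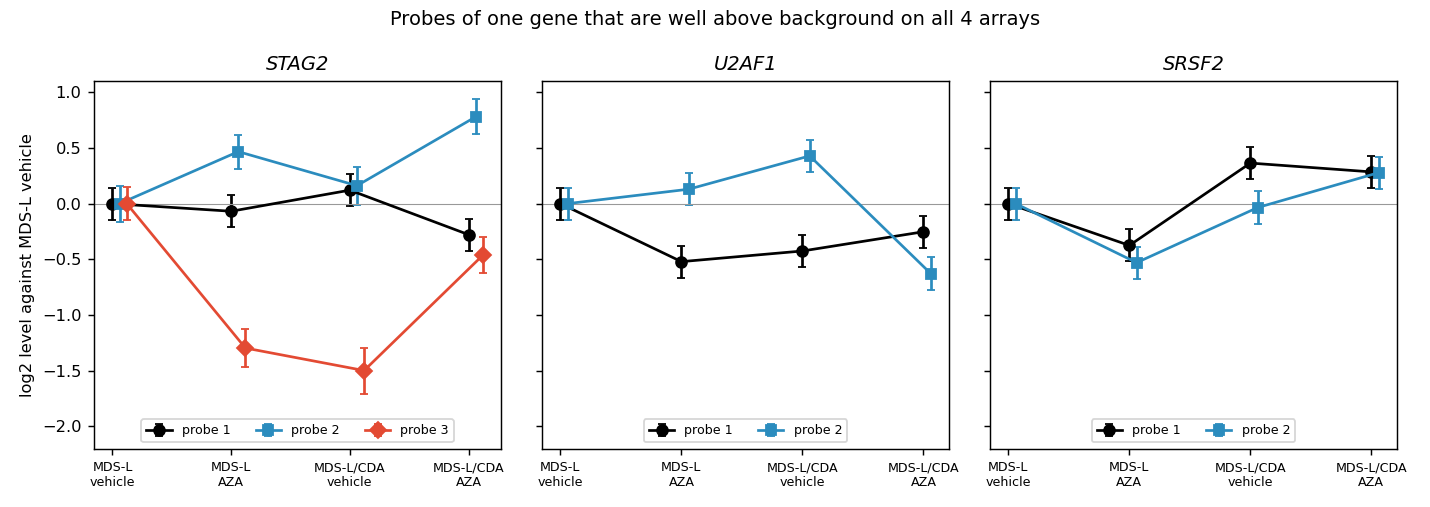
Log2 level relative to the MDS-L vehicle array for each probe of STAG2, U2AF1 and SRSF2 that was well above background on all 4 arrays. Points are single arrays and bars the scanner software's error of that array. STAG2 probe 3 lies at −1.30 and −1.50 in MDS-L AZA and MDS-L/CDA vehicle, where probes 1 and 2 lie between −0.07 and 0.47.

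The U2AF1 and STAG2 probes that were at least 2-fold apart where the brightest probe of their gene was not are shown. STAG2 probe 2 lay on the other side of 1 from probe 1 in both lines as well, short of 2-fold, and it spans no intron. By the positions in the array design, the 2 probes shown span an intron on hg19, so that each is placed on bases of 2 exons. How far each sequence matches the transcript of its gene was not checked. Both are written 5′ to 3′ in the sense of the RNA.
U2AF1 probe 2: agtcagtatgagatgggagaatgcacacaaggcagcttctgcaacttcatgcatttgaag
STAG2 probe 3: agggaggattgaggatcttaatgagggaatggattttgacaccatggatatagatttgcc
U2AF1 probe 2 covers chr21:44514631-44514780 on the minus strand with 90 intron bases between its parts, and probe 1 lies at chr21:44513163-44513222. STAG2 probe 3 covers chrX:123227937-123229223 on the plus strand, and probe 1 lies at chrX:123235840-123235899. The design lists STAG2 probes 1 and 3 for 4 RefSeq variants each. Over all genes with at least 2 measured probes, the probes of a gene differed by a median of 0.38 in log2 ratio of AZA to vehicle in MDS-L (3451 genes) and of 0.39 in MDS-L/CDA (3178 genes). STAG2 probes differed by 1.76 and 1.43, wider than in all but 1.80% and 3.30% of genes. This spread runs from the lowest to the highest probe and can widen with their number, 3 for STAG2. The genes compared were not matched for number or brightness of probes. For U2AF1 the spread was 0.65 in MDS-L and 1.23 in MDS-L/CDA, where 26.7% and 6.42% of genes were wider, and for SRSF2 it was 0.15 and 0.39.

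The number of probes at least 2-fold apart was then read against the whole array. In MDS-L cells, 2 of the 15 measured probes (13.3%) were at least 2-fold apart between AZA and vehicle, IDH1 and STAG2 probe 3, both lower, where 10.2% of all 19448 measured probes were in either direction and 5.97% were lower. In MDS-L/CDA cells it was also 2 of 15, STAG2 probe 3 higher and U2AF1 probe 2 lower, where 4.88% of 18080 probes were. The former was at the threshold, with a log2 ratio of 1.03 that was 0.99 with quantile normalization, 0.98 with median scaling and in the deposited value table, 0.91 without scaling and 0.42 with normexp. In vehicle, 1 of 15 probes differed 2-fold between the lines, STAG2 probe 3 with 0.354 of the MDS-L level in MDS-L/CDA, where 3.82% of 18630 probes did and 2.26% were lower, and by the brightest probe none of the 10 genes did, where 3.76% of 14510 genes did. With AZA none of the 15 did, where 9.19% of 18584 probes did, and 5 of the 15 reached 1.5-fold, where 30.7% of all probes did. At 1.5-fold the counts of the other comparisons were 4 in MDS-L (28.8% of all probes), 5 in MDS-L/CDA (17.4%) and 3 between the lines in vehicle (14.9%). These 4 comparisons share arrays in pairs, so their counts do not stand for separate observations.

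**Figure D3:**
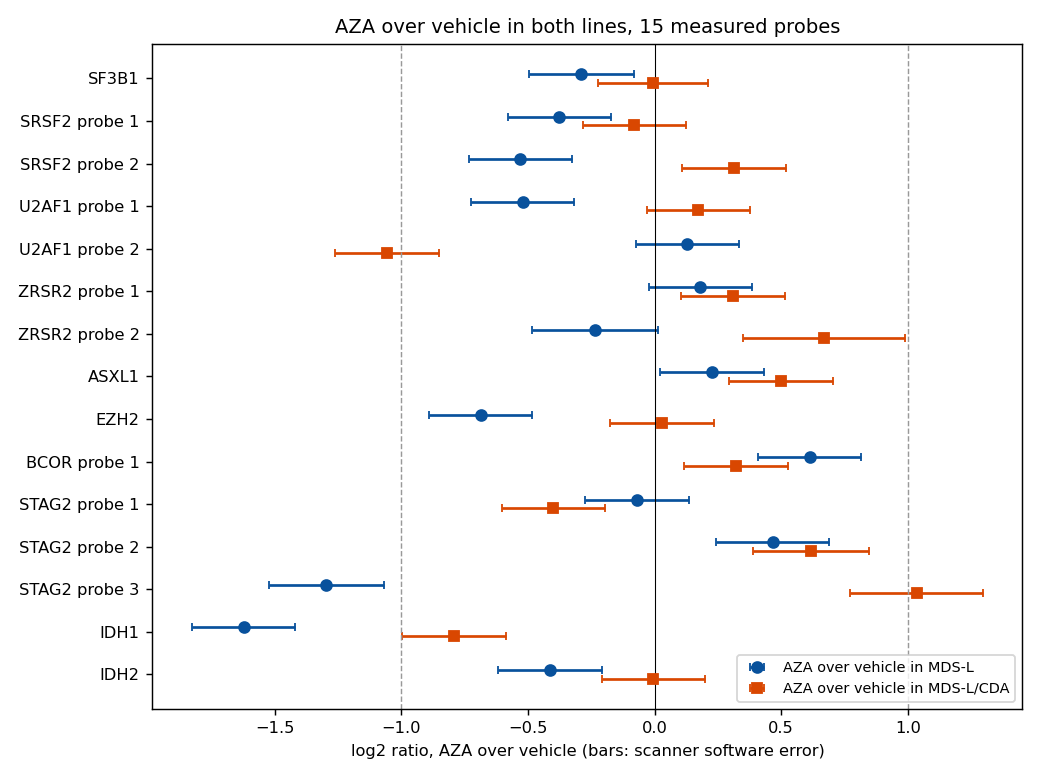
Log2 ratio of AZA over vehicle for the 15 measured probes in MDS-L (blue circles) and MDS-L/CDA (orange squares). Each point compares 2 arrays, bars are the scanner software's SE, and dashed lines mark 2-fold. IDH1 at −1.62 and −0.79 is the one gene with a single probe whose points both lie well left of 0.

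With each gene represented by its brightest probe, the median log2 ratio of AZA to vehicle over the 10 genes was −0.33 in MDS-L, where 7 genes were below 1 and 3 (BCOR, ASXL1 and ZRSR2) above it, and 62.3% of all genes were below 1. The median over all probes was −0.15 on the same scale. With quantile normalization these medians were −0.13 and −0.05, and STAG2 turned from −0.07 to 0.09. In MDS-L/CDA the median was 0.01, as it was over all probes, with 5 genes on each side, where 48.5% of all 14137 genes were below 1. The median of MDS-L/CDA over MDS-L was −0.07 in vehicle, where that of all probes was 0.09. With AZA it was 0.31, where that of all probes was 0.23. There 7 of the 10 genes were higher in MDS-L/CDA and 3 lower, where 32.1% of all 14542 genes were lower. Without scaling the median turned to −0.20 and that of all probes to −0.27.

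**Figure D4:**
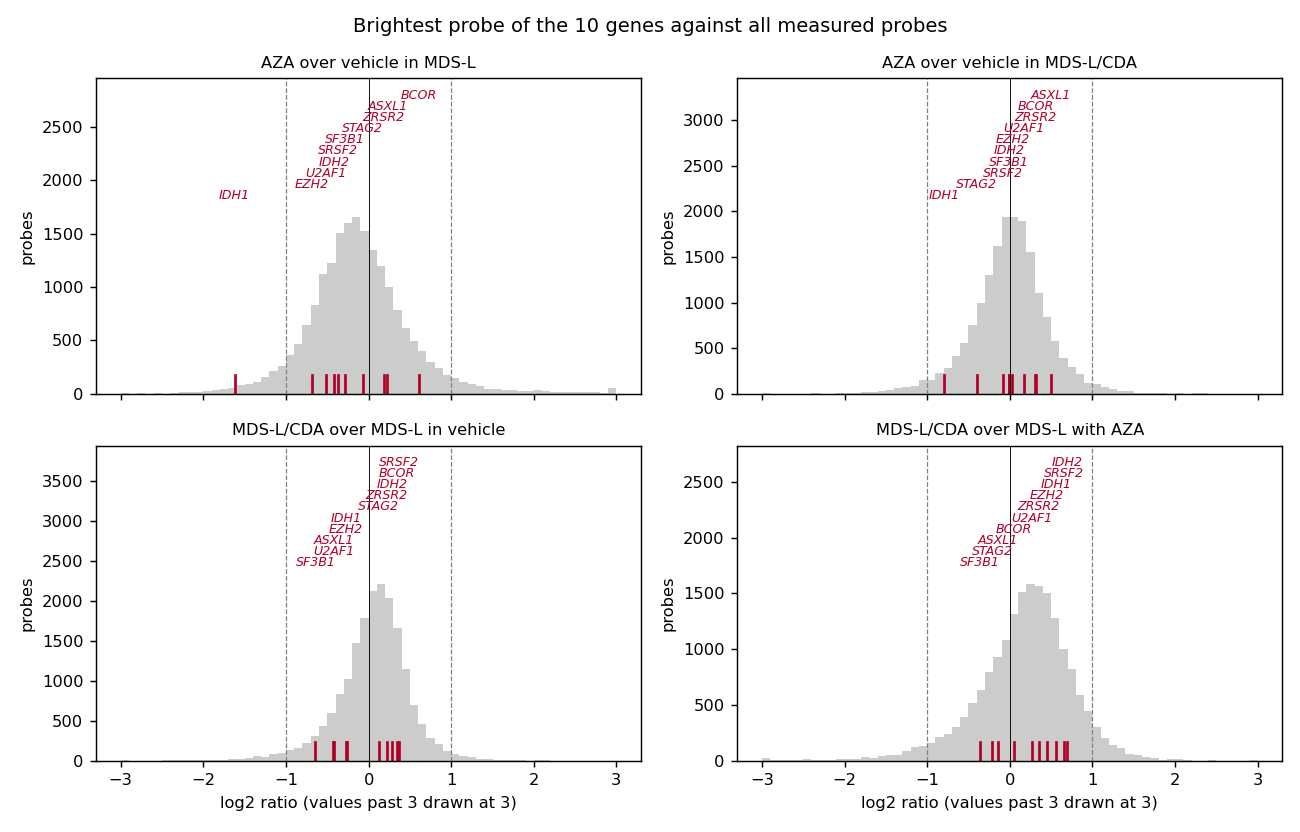
Log2 ratios of all probes well above background on both arrays of a pair (grey histograms, number of probes) for the 4 comparisons, with the brightest probe of each of the 10 genes as a red line named above it. Dashed lines mark 2-fold, and ratios past 3 are drawn at 3. Only IDH1 in MDS-L, at −1.62, lies outside the dashed lines.

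The partners of the 10 genes were read from 9 lists of 165 genes, none of them among the 10. The list on the U2 snRNP and 3′ splice site recognition, the step of SF3B1 and U2AF1, also holds LUC7L2 and PRPF40B of the U1 snRNP and PRPF8 of the U5 snRNP. Of its 25 genes, 23 had a ratio below 1 in MDS-L cells, where 62.3% of all genes did. The list median was −0.37 on the log2 scale, where the median of all genes was −0.16. Quantile normalization moved U2AF1 in MDS-L from −0.52 to −0.32 and SRSF2 from −0.38 to −0.12. Whether the count of 23 would hold under such a shift was not tested. LUC7L2 and DDX46, a helicase of U2 snRNP assembly, were at least 2-fold lower, with ratios of 0.376 and 0.451, where 10.3% of all 15104 genes were 2-fold apart. In MDS-L/CDA cells the median of 24 measured genes was 0.00 and none was 2-fold apart, where 4.83% of 14137 genes were.

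Of 20 SR proteins and their kinases, the family of SRSF2, 1 was 2-fold apart in each line. The share over all genes was 10.3% in MDS-L and 4.83% in MDS-L/CDA. SRSF1 was lower in MDS-L (ratio 0.366, 2.43 in vehicle and 0.889 with AZA) and SRPK2, a kinase of SR proteins, was lower in MDS-L/CDA (0.423). Their list medians were −0.34 and −0.03. SRSF8 was lower in MDS-L/CDA than in MDS-L both in vehicle (0.187) and with AZA (0.189). None of the 13 measured genes of the minor spliceosome, the machinery of ZRSR2, was 2-fold apart in any comparison. Over all genes the share was between 3.76% and 10.3%, depending on the comparison. The median of the 13 genes was −0.05 in MDS-L and 0.01 in MDS-L/CDA.

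In the 3 lists of partners of the chromatin regulators, 1 of 13, 1 of 9 and 0 of 10 measured genes were 2-fold apart with AZA in MDS-L, where 10.3% of all genes were. KDM6B, which removes the mark that EZH2 places, was higher with AZA in MDS-L (2.88), at low levels of 0.324 and 0.933, and was the 1 gene of 13 in the PRC2 list that was 2-fold apart. HCFC1, a partner of BAP1, was the 1 of 9 in the list of the ASXL1 complex (ratio 0.384), and with AZA it was at 2.06 of the MDS-L level in MDS-L/CDA. No gene of either list was 2-fold apart with AZA in MDS-L/CDA, where 4.83% of all genes were. KDM1B, a histone demethylase, was higher in MDS-L/CDA than in MDS-L in vehicle (2.09). Of the 10 measured genes of the BCOR complex PRC1.1, none was 2-fold apart in any comparison, where between 3.76% and 10.3% of all genes were.

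SMC3, a core subunit of the cohesin ring that STAG2 joins, had the lowest ratio of the 18 measured cohesin genes in MDS-L cells. Its level went with vehicle and AZA from 45.4 to 11.4 in MDS-L and from 50.0 to 55.2 in MDS-L/CDA, so 1 array lay apart from the other 3 (ratio 0.251). RAD21, which closes the ring, was at 0.876 in MDS-L and 0.946 in MDS-L/CDA, and STAG1, the alternative subunit to STAG2, at 0.618 and 0.815. The list median was −0.39 in MDS-L and −0.10 in MDS-L/CDA. With AZA, 4 of 18 genes were at least 2-fold higher in MDS-L/CDA than in MDS-L, SMC3 (4.84), ESCO2 (2.18), CDCA5 (2.12) and ESPL1 (2.11), where 5.32% of all 14542 genes were 2-fold higher and 9.22% were 2-fold apart in either direction. ESCO2 establishes cohesion, CDCA5 (sororin) protects it and ESPL1 (separase) ends it.

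CS, citrate synthase, was the 1 of 19 genes around isocitrate and 2-oxoglutarate that was 2-fold apart in MDS-L (ratio 0.322, 153 in vehicle and 49.4 with AZA). Of all genes, 10.3% were. In MDS-L/CDA the levels of CS were 96.2 and 113. The list median was −0.36 in MDS-L and −0.04 in MDS-L/CDA, where none of 20 was 2-fold apart, beside 4.83% of all genes. Of 28 measured genes among other recurrent targets of mutation in MDS, GATA2, a transcription factor of blood progenitors, was higher with AZA in both lines, with ratios of 2.46 (13.3 and 32.7) and 2.01 (13.1 and 26.4). ETV6 and CREBBP were lower with AZA in MDS-L/CDA, at 0.477 and 0.333, and CREBBP was also lower in MDS-L/CDA than in MDS-L with AZA, at 0.289. Of the 28 genes, 3.57% were 2-fold apart with AZA in MDS-L and 10.7% in MDS-L/CDA, beside 10.3% and 4.83% of all genes.

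**Figure D5:**
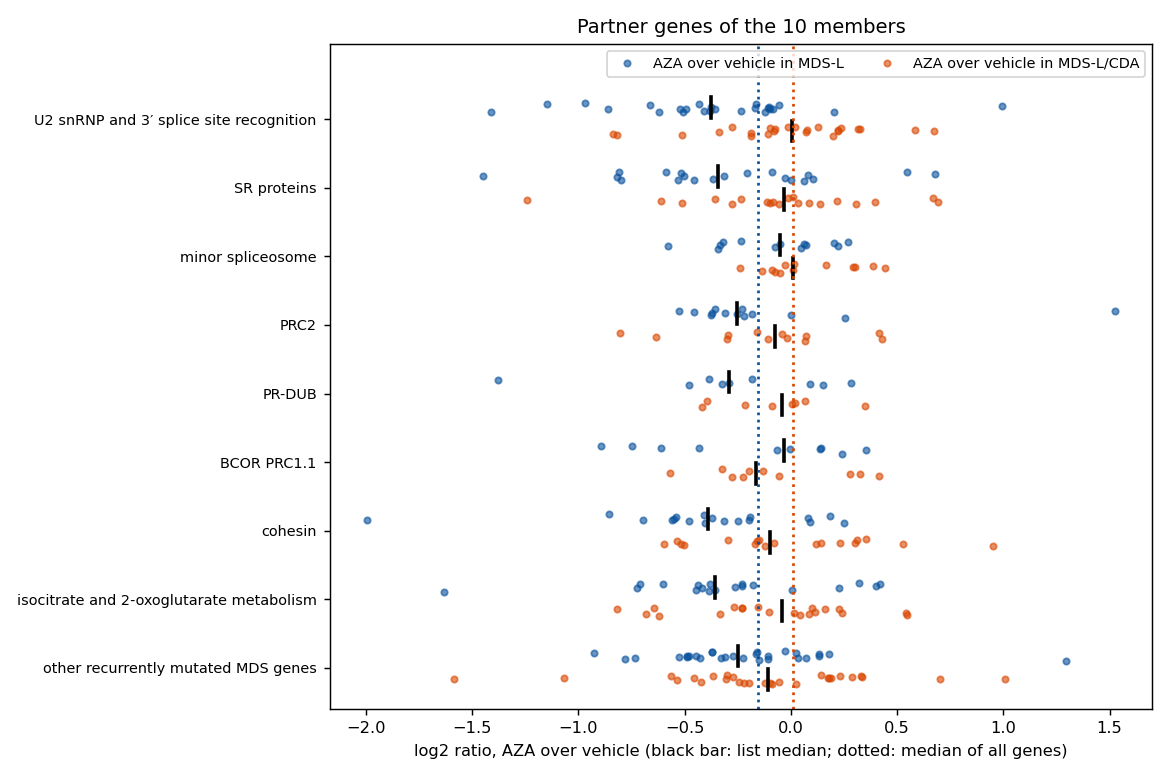
Log2 ratio of AZA over vehicle for the measured genes of the 9 partner lists, by the brightest probe of each gene, in MDS-L (blue) and MDS-L/CDA (orange). Each point is 1 gene, black bars are list medians, and dotted lines are the medians of all genes in the same colours. In MDS-L the medians run from −0.39 in cohesin to −0.03 in the PRC1.1 list.

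The genes whose 4 levels ran most alike to those of the members with the widest range were taken from 13720 genes above background on all 4 arrays, by the Euclidean distance of centred log2 levels over 4 arrays. For IDH1 they were C17orf58 (distance 0.03) and VSTM1 (0.10). VSTM1, a leukocyte surface receptor, had levels of 38.3, 12.4, 33.6 and 19.9 in MDS-L vehicle, MDS-L AZA, MDS-L/CDA vehicle and MDS-L/CDA AZA. For SRSF2 the nearest were NSFL1C and FANCE (0.02 and 0.03), and for IDH2 they were TTI1 and MRPL50 (0.02 each). The distances describe these 4 arrays only.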

How the data were processed

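The authors deposited, per array, scanner output of Agilent Feature Extraction 10.7.1.1, whose processed spot intensity is background-subtracted and not normalized between arrays, and a value table of 51680 probes with intensity on a linear scale. Sorted values of its columns nearly coincide, as quantile normalization gives; the methods do not describe that step. Column medians were 4.24, 4.31, 4.21 and 4.22, and log2 values correlated with the scanner values at 0.999 or more across 51664 probes. From the scanner intensity, control spots and 16 probes with outlier flags were left out, log2 values were averaged over spots, and each array's 75th percentile was subtracted. A probe counted as 2-fold apart when well above background on both arrays; the software's error was carried into each log2 ratio. A gene was represented by its brightest probe. The calling step was tested on simulated data, with log2 changes of 2 set in probes with a signal above 50. The noise was that between spots within an array. Changes near 2-fold, changes in dimmer probes and differences between cultures were not simulated. Probe positions are hg19 from the array files; exon and UTR annotation was not used here, and promoters are from RefSeq on GRCh38.p14. The members and lists were chosen with earlier results of these data known. All members were named, with the partner genes at least 2-fold apart (at most 3 each way per list and comparison) and the nearest profiles of 3 members; ESPL1, PRPF8, PRPF40B, RAD21 and STAG1 were added after their values were seen. Alternatives were other scalings, normexp (limma 3.58.1, offset 50), the value table, other filters and ratio rules. Python 3.11.15, numpy 2.4.6, pandas 2.3.3, matplotlib 3.10.9 and R 4.3.3 were used.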

Additional observations from a re-analysis of the deposited data

Results flagged for a closer look

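On 2 probes the AZA arrays lay on opposite sides of the vehicle arrays in the 2 lines, each by more than the software's error, and this difference between the lines was not tested. SRSF2 probe 2 (A_33_P3412945) had a log2 ratio of −0.53 in MDS-L and 0.31 in MDS-L/CDA, a difference of −0.84. Its value in MDS-L/CDA was 0.18 without scaling and 0.21 with normexp, no longer clear of the software SE of 0.20. STAG2 probe 3 (A_23_P33856) had −1.30 in MDS-L and 1.03 in MDS-L/CDA, a difference of −2.33, and the other STAG2 probes did not share it.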

How the results depend on the processing

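No paired analysis was possible because, with 1 array a condition, the labels hold no replicate numbers that pair arrays, and no replicate could be left out. IDH1 was lower with AZA under all 9 alternatives, at −2.16 to −1.44 (log2) in MDS-L and −0.92 to −0.75 in MDS-L/CDA, and EZH2 in MDS-L was at −1.23 to −0.50. Both genes have 1 probe, above background on all 4 arrays, so the other filters and the averaging of probes could not change these values. Median scaling moved all probes in MDS-L to a median of −0.69 and the 10 genes to −0.87, and 5 of their 15 measured probes passed 2-fold, where 27.7% of all probes did. The 10 genes in MDS-L (−0.33) were at −0.13 under quantile, −0.14 in the value table and −0.15 with the percentile of detected probes. All probes were then at −0.05, −0.05 and 0.03, and STAG2 (−0.07) turned positive, at 0.09, 0.10 and 0.12. U2AF1 in MDS-L/CDA (0.17) and STAG2 in MDS-L/CDA (−0.40) changed sign to −0.44 and 0.42 when the probes of a gene were averaged. STAG2 probe 3 was at −0.62 in MDS-L and 0.42 in MDS-L/CDA under normexp. Member probes passing in MDS-L (2) were 1 under normexp or with a Z score of at least 2 added, and 4 at 1.5-fold. In MDS-L/CDA (2) they were 1 under quantile, no or median scaling, normexp, the value table or the Z score, and 5 at 1.5-fold. Between the lines in vehicle (1) they were 3 without scaling, with median scaling or at 1.5-fold, 2 without the filter on dim probes and 0 under normexp. Between the lines with AZA (0) they were 1 under quantile, no scaling, the percentile of detected probes, normexp or the value table, and 5 at 1.5-fold. The median between the lines in vehicle (−0.07) moved to −0.44 without scaling, −0.60 with median scaling and −0.31 under normexp. With AZA (0.31) it moved to 0.06 under quantile, the value table and the percentile of detected probes, to −0.20 without scaling and to −0.01 under normexp. Of 270 single-gene values, 34 moved, 20 of them under median scaling. Many of the 270 could not move. The brightest probe of all 10 genes was above background on all 4 arrays, so the other filters repeated its value. Averaging could not change a gene with 1 measured probe. The 270 values cover AZA over vehicle in each line and its difference between the lines, and no ratio of 1 line to the other. A log2 ratio of AZA to vehicle counted as moved past 0.20. The limit for a difference between the lines was wider by the square root of 2. The cause of these shifts was not tested. The number of arrays limits the precision.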
